A study of Mus musculus with 32 samples.

Results

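The comparison described here was between granulocyte-macrophage progenitors (GMP) of mice given a drug combination and GMP of mice given Lys05 without the second drug, and it took in 8 of the 32 bulk RNA-seq libraries of the study. The rule was the treatment label within the cell-sorted GMP samples: 4 libraries carried the label Combination and 4 the label Lys05. All mice were transgenic FLT3-ITD animals of the C57BL/6 strain treated in vivo, and the RNA came from bone marrow cells sorted by flow cytometry. The design text lists vehicle, Lys05, AC220 and the combination as treatments, each also applied to LSK cells (the Lin-, Sca-1+, Kit+ marrow fraction, which holds stem and multipotent cells). Every mouse in these 8 libraries had therefore received Lys05, and the contrast gives what differed when AC220 was added to it. The labels state 4 biological replicates per group. They give no dose, schedule, age, sex or preparation batch, nor the promoter that drives the FLT3-ITD allele.

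FLT3 is a receptor tyrosine kinase of early blood progenitors, and its internal tandem duplication (ITD), a common lesion of acute myeloid leukemia, keeps the kinase active without ligand. Active FLT3-ITD signals through STAT5, the RAS-ERK route and PI3K-AKT, and these routes feed MYC, cyclins and survival genes. AC220 (quizartinib) blocks the FLT3 kinase, and also KIT. Lys05 is a dimeric relative of chloroquine that collects in lysosomes, raises their pH and so blocks the last step of autophagy. GMP are the committed progenitors of neutrophils, monocytes and part of the dendritic cells, and they make the primary granule proteins in bulk.

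The libraries held transcripts that mark GMP, although not every marker was even across them. Mpo (myeloperoxidase) lay between 4447 and 12458 CPM (a gene's counts as a rate over the TMM-scaled library size), Elane (neutrophil elastase) between 4316 and 36109 and Prtn3 (proteinase 3) between 4948 and 13975 in the 8 libraries. The progenitor surface genes Kit and Cd34 were detected in each of them, at 12.3 to 85.4 and 34.9 to 149 CPM. Ctsg, Ms4a3 and Fcgr3 of the same marker list were never below 131.5 CPM. Cebpa was at 16.4, 5.16, 0.935 and 17.0 CPM in combination libraries 1 to 4 and at 11.7 to 17.1 CPM with Lys05. Irf8, the last marker of the list, was also lowest in combination library 3, at 75.8 CPM. Each library held between 35668279 and 52331453 gene counts. The groups differed in how alike their libraries were. The median correlation of log2 CPM with the other libraries of the group was 0.860 to 0.964 for Lys05 and 0.676 to 0.792 for the combination, lowest in combination library 3. Among the 9199 genes whose mean log2 CPM reached 2, the median SD between libraries was 1.28 (log2) in the combination and 0.465 in Lys05, and 87.7% of these genes had the larger SD in the combination. The mitochondrially encoded share of the counts was 1.69%, 7.31%, 18.1% and 2.2% in combination libraries 1 to 4, and 9.19%, 1.29%, 0.377% and 0.622% in the Lys05 libraries. Lys05 library 1 stood apart from the rest of its group in this share. Combination library 3 held the highest share of its group, with combination library 2 next. Several results that rest on combination library 3 are given below with and without it. Transcripts under 1000 bp took 18.5% ± 2.27 of the gene counts with the combination and 20.6% ± 1.18 with Lys05 (SD, n = 4 each), a difference that did not exceed the spread between libraries (exact two-sided permutation test, p = 0.171, where the smallest p that 4 against 4 allows is 0.0286).

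**Figure D1:**
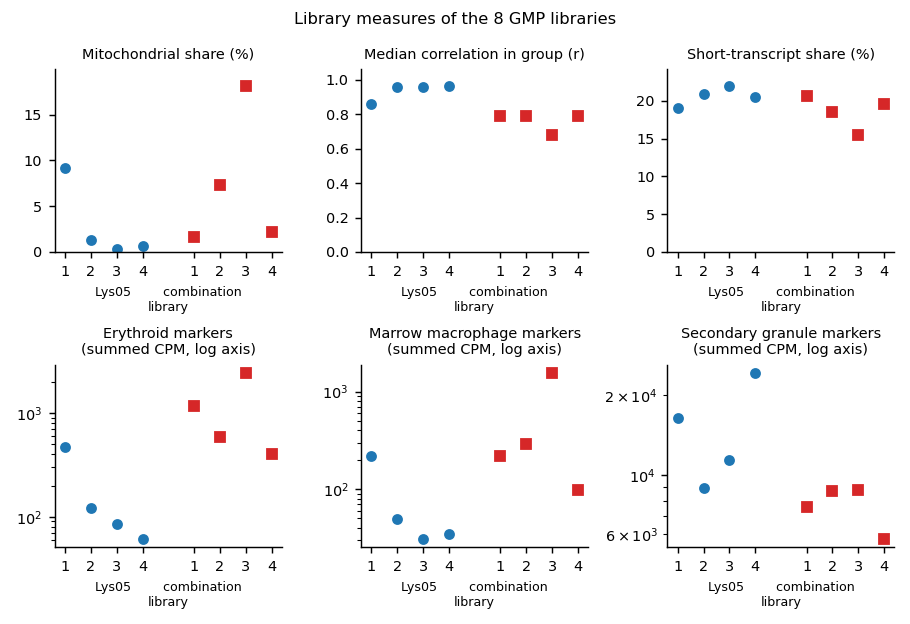
Library measures of the 8 GMP libraries (circles, Lys05; squares, combination; library number on the x axis): mitochondrially encoded share of gene counts, median correlation with the other libraries of the group, share of transcripts under 1000 bp, and the summed CPM of erythroid, marrow macrophage and secondary granule marker lists on log axes. The combination libraries had the lower correlations, library 3 had the highest mitochondrial share at 18.1%, and the secondary granule sums did not overlap between the groups.

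No gene passed an adjusted p of 0.05 in the main test, edgeR's quasi-likelihood test on the 16 GMP libraries with Benjamini-Hochberg adjustment, so 0% of the 14572 genes tested were called. The smallest adjusted p was 0.0942. At an unadjusted p under 0.05 there were 1786 genes (12.3%), of which 1060 (7.27%) were higher and 726 (4.98%) lower with the combination. The count of calls differed between the tests. DESeq2 called 454 of the same genes (3.12%), of which 244 were higher (1.67%) and 210 lower (1.44%), and limma's voom with library quality weights called 494 (3.39%), of which 442 were higher (3.03%) and 52 lower (0.357%). Of the 454 genes, 450 had an unadjusted edgeR p under 0.05. A single edgeR fit of all 32 libraries called 1210 of 17144 genes for this contrast (7.06%), 674 of them higher (3.93%) and 536 lower (3.13%). In that fit the LSK libraries share in the estimate of the spread, and their common biological coefficient of variation was 0.475, against 1.06 for the GMP libraries. Without combination library 3 the main test called 22 of 15043 genes (0.146%), 18 higher (0.12%) and 4 lower (0.0266%), and 17 of the 22 were also called by DESeq2 with every library in. Without the 5 GMP libraries whose median correlation with the other GMP libraries was under 0.8 it called 198 of 15911 (1.24%), 85 higher (0.534%) and 113 lower (0.71%). The values below are therefore given as differences between libraries, with the words higher and lower describing the samples. Calls by the other tests are stated for part of the genes only. A gene given without them may still have been called by another test. The median log2 fold change of all genes tested was 0.26 in the main fit, -0.38 under voom and 0.04 without combination library 3, and lists of genes are set against that median.

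The 8 genes with the smallest p among those higher with the combination were Hsp90ab1, Tsc22d4, Utrn, Nars, Las1l, Emg1, Fubp1 and Ncl. They were chosen for their p and for the lack of overlap between the groups, a separation that 470 of all genes tested (3.23%) had in this direction, 826 (5.67%) in the other, and 1296 (8.89%) in either. None of them passed the main test, all 8 were called by DESeq2, by voom and by the fit of all 32 libraries, and Hsp90ab1, Tsc22d4, Utrn, Nars, Las1l and Emg1 were also called by edgeR without combination library 3.

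Hsp90ab1, which encodes the constitutive cytosolic chaperone HSP90 beta (a chaperone on which many kinases, FLT3-ITD among them, depend), stood at 7478, 10005, 5584 and 13621 CPM in combination libraries 1 to 4 and at 3569, 3184, 1960 and 1978 CPM in Lys05 libraries 1 to 4. The lowest combination library was above the highest Lys05 library, and the log2 fold change was 1.78 ± 0.31 (SE; edgeR adjusted p = 0.0942). Ncl encodes nucleolin, the abundant nucleolar protein that binds nascent ribosomal RNA, and measured 2337, 2658, 2129 and 2581 CPM with the combination. Its Lys05 values were 1091, 893, 568 and 632 CPM, giving a log2 fold change of 1.61 ± 0.32 (SE; edgeR adjusted p = 0.104). The 4 combination libraries were close together for this gene, although they differed widely for most others.

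Las1l and Emg1 act on ribosomal RNA itself, Las1l in the cleavage of the internal spacer of the large-subunit precursor and Emg1 as a methyltransferase of the small-subunit RNA. Las1l was at 94.3, 82.8, 83.8 and 113 CPM with the combination and at 30.9, 33.2, 23.3 and 24.8 CPM with Lys05 (log2 fold change 1.74 ± 0.33 SE, edgeR adjusted p = 0.0981). Emg1 was at 854, 880, 700 and 1078 CPM against 370, 464, 423 and 356 CPM (1.12 ± 0.22, adjusted p = 0.0981 by edgeR). Both genes had tight values in both groups. Nars, the cytosolic asparaginyl-tRNA synthetase and a known target of the stress factor ATF4, was at 906, 952, 833 and 1916 CPM with the combination, where library 4 was the high one, and at 441, 320, 250 and 216 CPM with Lys05 (1.91 ± 0.35, adjusted p = 0.0942 by edgeR). Fubp1, a single-stranded DNA binding protein known for its site upstream of MYC, was at 161, 307, 405 and 370 CPM against 96.2, 76.6, 63.7 and 55.5 CPM (2.09 ± 0.40, adjusted p = 0.0981 by edgeR).

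The other 2 genes of this group have other roles. Tsc22d4, a leucine zipper protein of the TSC22 family, was nearly constant in the Lys05 libraries at 164, 139, 140 and 138 CPM. With the combination it was at 493, 751, 246 and 753 CPM, lowest in library 3 (log2 fold change 1.95 ± 0.34 SE, edgeR adjusted p = 0.0942). Utrn encodes utrophin, the large cytoskeletal relative of dystrophin, and was at 89.0, 230, 66.4 and 133 CPM against 31.4, 19.4, 12 and 12.3 CPM (2.79 ± 0.51, adjusted p = 0.0942 by edgeR).

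**Figure D2:**
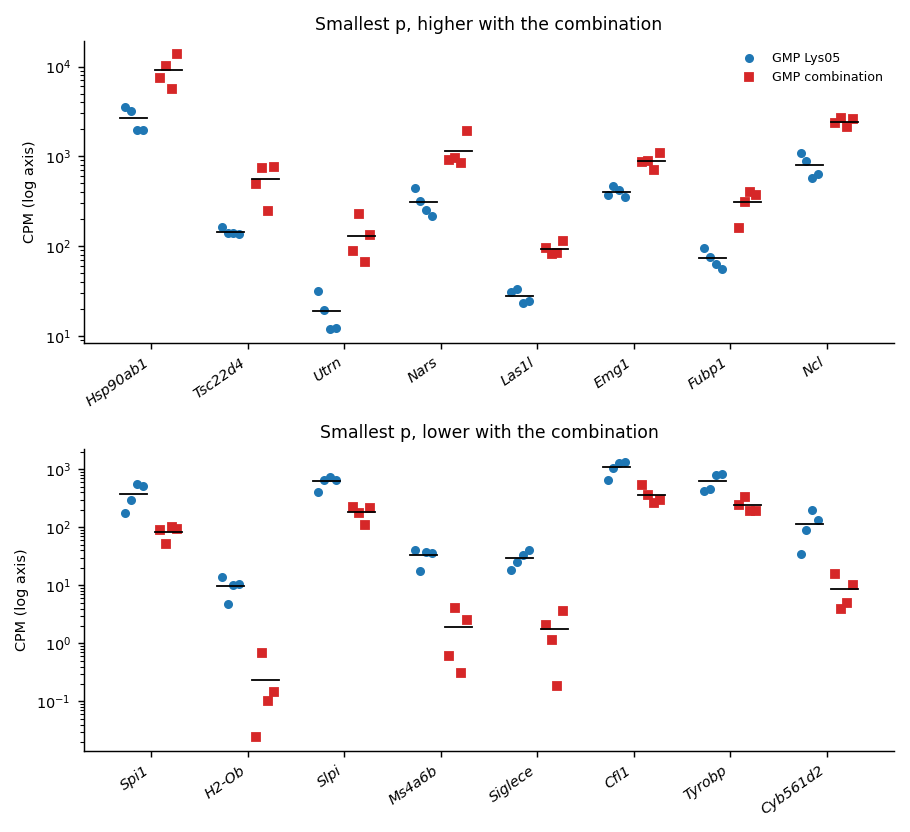
CPM (log axis) of the 16 genes that led by p, 8 higher and 8 lower, in the 4 Lys05 (circles) and 4 combination (squares) GMP libraries; short lines are group means. No gene's groups overlap, which the rule for choosing them required, and the lower genes H2-Ob, Ms4a6b and Siglece were under 5 CPM in every combination library.

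The wider list of MYC targets and ribosome biogenesis factors lay mostly above Lys05. Of its 43 genes tested, 33 had a positive log2 fold change, and the median was 0.65 beside 0.26 for all genes. At an unadjusted p under 0.05 there were 15 higher and 1 lower member, where 7.27% and 4.98% of all genes were. DESeq2 called 4 of its members higher, where it called 1.67% of all genes higher. The fit of all 32 libraries called 10 higher and 1 lower, where it called 479 higher and 493 lower of the 14572 genes of the main test. Rrp12, an export and maturation factor of pre-ribosomes, was at 102, 115, 48.3 and 61.8 CPM with the combination and at 32.5, 29.9, 20.4 and 16.6 CPM with Lys05 (log2 fold change 1.72 ± 0.46 SE, edgeR adjusted p = 0.231, DESeq2 adjusted p = 0.00582). Hspd1, the mitochondrial chaperonin HSP60 and a MYC target, was at 409, 281, 383 and 360 CPM against 167, 231, 140 and 148 CPM (1.06 ± 0.27, edgeR adjusted p = 0.211). Neither gene's groups overlapped. Ddx21, a nucleolar RNA helicase, overlapped between the groups at 162, 258, 106 and 342 CPM against 112, 88.9, 48.4 and 48.7 CPM. Myc itself did not follow these genes: it was at 86.4, 37.4, 1.27 and 34.8 CPM with the combination and at 31.6, 58.6, 77.1 and 95.8 CPM with Lys05 (log2 fold change -0.72 ± 0.72 SE, edgeR adjusted p = 0.728).

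The cytosolic ribosomal protein genes had positive log2 fold changes in 69 of 78 cases, with a median of 0.50, and none passed the main test. Of the 78, 24 had an unadjusted p under 0.05, all of them higher, where 7.27% of all genes were higher. DESeq2 called 2 higher, where it called 1.67% of all genes higher. Rpl35a, a protein of the large subunit, was at 3984, 4050, 1876 and 5445 CPM with the combination and at 2318, 1889, 1084 and 1015 CPM with Lys05 (log2 fold change 1.28 ± 0.32 SE, edgeR adjusted p = 0.206, DESeq2 adjusted p = 0.0125). Rpl23, another large-subunit protein, was at 3597, 3024, 2178 and 7732 CPM against 2263, 1885, 1022 and 1062 CPM (1.41 ± 0.40, edgeR adjusted p = 0.241). For both genes combination library 3 overlapped the Lys05 values and the other combination libraries lay above them. Without library 3 the groups did not overlap for 28 of the 78 genes, all higher, where 8.41% of all genes tested did so in that direction. The median stayed above that of all genes under all 20 settings tried, by 0.06 to 0.99 log2.

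Heat shock genes shared the direction of Hsp90ab1. Of the 11 tested, 10 were positive, where 59.6% of all genes were, with a median of 1.06. At an unadjusted p under 0.05 there were 6, all higher, where 7.27% of all genes were higher. Hsp90aa1, the inducible cytosolic HSP90, was at 2335, 4458, 4653 and 2515 CPM with the combination and at 2058, 1079, 639 and 647 CPM with Lys05 (log2 fold change 1.66 ± 0.41 SE, edgeR adjusted p = 0.203, DESeq2 adjusted p = 0.0152). Its groups did not overlap, although Lys05 library 1 came close to the lowest combination library. Hspa8, the constitutive HSP70, overlapped between the groups at 2743, 1788, 1438 and 2101 CPM against 1142, 1366, 1640 and 1243 CPM (0.58 ± 0.23, edgeR adjusted p = 0.314).

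Genes of oxidative phosphorylation had a median log2 fold change of 0.16 over 72 genes, under that of all genes. At an unadjusted p under 0.05, 8 were higher and 3 lower, where 7.27% and 4.98% of all genes were. Cox7c, a small subunit of cytochrome c oxidase, was at 1898, 1296, 1303 and 3278 CPM with the combination and at 871, 1168, 922 and 697 CPM with Lys05, with no overlap (log2 fold change 1.09 ± 0.34 SE, edgeR adjusted p = 0.249). The mitochondrially encoded messenger RNAs were positive in 12 of 12 cases with a median of 1.53, and none had an unadjusted p under 0.05. Their median was 0.33 without combination library 3, 3.60 without Lys05 library 1 and 2.32 without both, the libraries with the highest mitochondrial share of their groups.

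**Figure D3:**
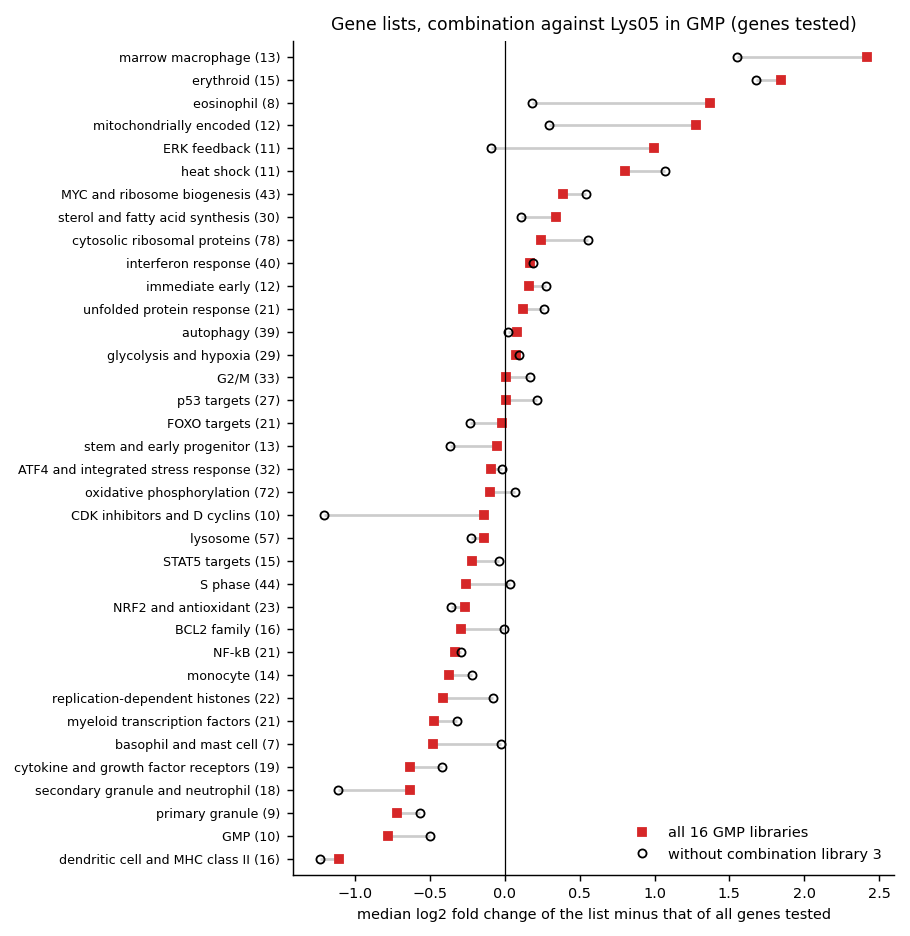
Median log2 fold change of each gene list with at least 5 genes tested, minus the median of all genes tested, with all 16 GMP libraries in the fit (squares) and without combination library 3 (open circles); the number of genes tested is in brackets. Heat shock, ribosome biogenesis and ribosomal protein genes lay above 0 both ways, dendritic, GMP and granule genes below 0, and ERK feedback genes lay near 1 only with library 3.

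The 8 genes that led by p on the lower side were Spi1, H2-Ob, Slpi, Ms4a6b, Siglece, Cfl1, Tyrobp and Cyb561d2. The gene with the smallest p in the whole comparison was Spi1, which encodes PU.1, the ETS factor that GMP need to form neutrophils, monocytes and dendritic cells. Spi1 was at 89.5, 51.1, 103 and 93.2 CPM with the combination and at 175, 295, 551 and 509 CPM with Lys05. Every combination library lay below every Lys05 library, and Lys05 libraries 1 and 2 were lower than 3 and 4. The log2 fold change was -2.18 ± 0.36 (SE; edgeR adjusted p = 0.0942, DESeq2 adjusted p = 4.1e-05), and without combination library 3 it was -2.43 with an edgeR adjusted p of 0.0355. With the length and GC offset it was the smallest of all settings, at -1.28.

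Slpi, the secreted inhibitor of neutrophil elastase, was at 225, 179, 109 and 219 CPM with the combination and at 413, 660, 745 and 664 CPM with Lys05 (log2 fold change -1.76 ± 0.32 SE, edgeR adjusted p = 0.0942). Tyrobp, the adapter DAP12 that signals for myeloid surface receptors, was at 244, 340, 191 and 189 CPM against 430, 460, 812 and 845 CPM (-1.40 ± 0.28, edgeR adjusted p = 0.104). Cfl1, the actin-severing protein cofilin, was at 531, 364, 259 and 292 CPM against 650, 1062, 1293 and 1318 CPM (-1.58 ± 0.32, edgeR adjusted p = 0.104). In all 3 genes the groups were separate, with the nearest libraries closer together for Tyrobp and Cfl1 than for Slpi. DESeq2 called each of them.

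The largest differences among the lower genes were in genes at low levels. Siglece, an inhibitory sialic acid receptor of neutrophils and monocytes, was at 2.10, 1.15, 0.182 and 3.57 CPM with the combination and at 18.6, 25.2, 33.6 and 40.6 CPM with Lys05 (log2 fold change -4.07 ± 0.81 SE, edgeR adjusted p = 0.104, and 0.0440 without combination library 3). Ms4a6b, a four-span membrane protein of immune cells, was at 0.611, 4.15, 0.312 and 2.52 CPM against 40.9, 17.9, 37.4 and 36.9 CPM (-4.13 ± 0.78, edgeR adjusted p = 0.0981). Cyb561d2, a membrane protein of the cytochrome b561 family, was at 15.4, 3.99, 4.98 and 10.3 CPM against 34.3, 88.9, 199 and 136 CPM (-3.72 ± 0.75, edgeR adjusted p = 0.104). DESeq2 called these 3 genes and voom called Ms4a6b among them. In bulk RNA, fewer cells of a kind within the sorted gate and less RNA per cell cannot be told apart, which holds for every gene named here.

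H2-Ob, also among the 8 lower genes, encodes the beta chain of H2-O, which restrains the peptide loading of MHC class II molecules by H2-DM. Class II genes are read together from the X and Y boxes of their promoters, which a complex with the coactivator CIITA binds. To show this shared element, the stretch around the Y box (the letters GATTGG, in capitals) is given 5′ to 3′ on the strand of the gene for 4 class II genes, from the RefSeq promoter table on GRCm38.p6.
H2-Ob (chr17:34238803-34238862, plus strand): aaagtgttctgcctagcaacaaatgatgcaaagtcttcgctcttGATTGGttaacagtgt
H2-DMb1 (chr17:34153085-34153144, plus strand): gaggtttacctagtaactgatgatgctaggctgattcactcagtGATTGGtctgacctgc
H2-Aa (chr17:34287857-34287916, minus strand): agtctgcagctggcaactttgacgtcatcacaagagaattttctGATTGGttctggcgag
H2-Eb1 (chr17:34305763-34305822, plus strand): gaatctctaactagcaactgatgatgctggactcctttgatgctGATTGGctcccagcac
The motif GATTGG began 58, 62, 49 and 60 bases before the start site in H2-Ob, H2-DMb1, H2-Aa and H2-Eb1. Searched on both strands, it was present in 14.6% of the 32851 promoters of the table, whose windows open 250 bases before the start, and on the strand of the gene in 7.7%. The match is a description of these letters. H2-DMa held the motif in 1 of its 2 promoters, at 199 bases before the start site, farther away than in the 4 genes printed. H2-Ab1 had no promoter in the RefSeq table and was not searched.

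H2-Ob was at 0.0244, 0.681, 0.104 and 0.145 CPM with the combination and at 13.9, 4.76, 10.3 and 10.6 CPM with Lys05, with no overlap (log2 fold change -5.35 ± 0.95 SE, edgeR adjusted p = 0.0942, DESeq2 adjusted p = 6.35e-10). H2-DMb1, the beta chain of the peptide loader H2-DM, was at 26.4, 19.8, 0.0519 and 4.93 CPM against 75.5, 62.3, 88.9 and 101 CPM, also with no overlap (-2.68 ± 0.96, edgeR adjusted p = 0.285). H2-Aa, an alpha chain that presents peptides, overlapped between the groups at 24.8, 120, 320 and 291 CPM against 810, 205, 78.8 and 149 CPM (-0.72 ± 0.69, edgeR adjusted p = 0.713). H2-Eb1, a beta chain, overlapped as well, at 2.22, 75.1, 1.12 and 249 CPM against 335, 81.9, 40.2 and 71.3 CPM. Lys05 library 1 held the highest values of H2-Aa and H2-Eb1, and among the combination libraries they ranged widely. Ciita, the class II coactivator, was at 0.0977, 2.37, 21.1 and 3.80 CPM against 13, 2.24, 0.236 and 1.40 CPM (0.70 ± 1.13, edgeR adjusted p = 0.846). Of the 4 genes whose promoters are printed, H2-Ob and H2-DMb1 separated the groups and H2-Aa and H2-Eb1 did not.

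**Figure D4:**
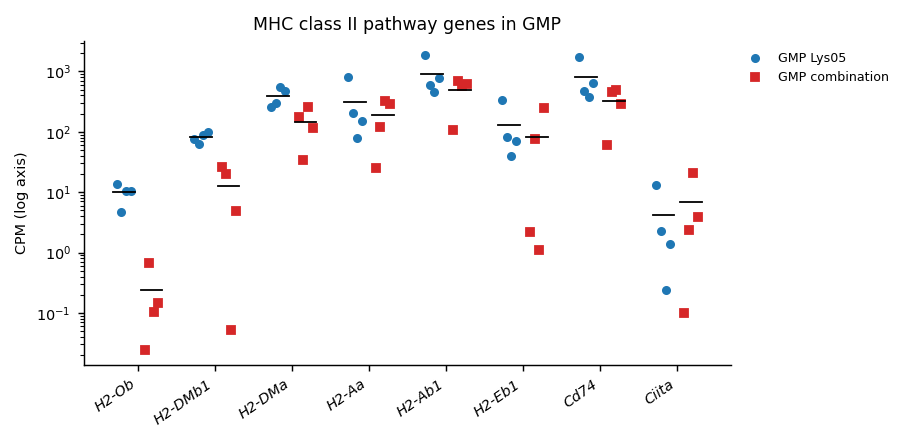
CPM (log axis) of MHC class II genes, of the invariant chain gene Cd74 and of Ciita in the 4 Lys05 (circles) and 4 combination (squares) GMP libraries; short lines are group means. H2-Ob and H2-DMb1 do not overlap between the groups, and the other 6 genes do.

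In the whole list of dendritic cell and class II genes, 12 of 16 were negative with a median log2 fold change of -0.85, beside 0.26 for all genes. It was -1.19 without combination library 3 and 0.03 without Lys05 library 1. At an unadjusted p under 0.05 there were 5 lower and 1 higher, where 4.98% and 7.27% of all genes were, and none passed the main test. DESeq2 called 2 lower, where it called 1.44% of all genes lower. The median lay below that of all genes under all 20 settings, at -2.05 to -0.32 log2 from it, while the median itself ranged from -2.13 to 0.03.

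Of the 18 secondary granule and neutrophil genes, 12 were negative, and the median was -0.38 beside 0.26 for all genes (-1.07 without combination library 3). At an unadjusted p under 0.05 there were 4, all lower, where 4.98% of all genes were lower. Camp, the antimicrobial cathelicidin of secondary granules, was at 1358, 1193, 430 and 663 CPM with the combination and at 2415, 1377, 2008 and 3680 CPM with Lys05 (log2 fold change -1.38 ± 0.39 SE, edgeR adjusted p = 0.241, DESeq2 adjusted p = 0.0213). Fcnb, a ficolin of maturing neutrophils, was at 99.3, 43.0, 125 and 95.1 CPM against 130, 165, 467 and 632 CPM (-1.94 ± 0.59, edgeR adjusted p = 0.246). Neither overlapped, though the nearest libraries were close. Ngp, the neutrophilic granule protein, overlapped at 2077, 3372, 1822 and 809 CPM against 4405, 2670, 4597 and 10310 CPM (-1.44 ± 0.48, edgeR adjusted p = 0.260). The summed CPM of the list was 5724 to 8786 in the combination libraries and 8953 to 24130 in the Lys05 libraries (exact two-sided permutation test, p = 0.0286, the smallest that 4 against 4 allows; p = 0.267 after Benjamini-Hochberg adjustment over the 14 marker lists).

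Primary granule genes, which define GMP, were also compared. Elane was at 9422, 13489, 9524 and 4316 CPM with the combination and at 5793, 10990, 36109 and 28695 CPM with Lys05 (log2 fold change -1.15 ± 0.50 SE, edgeR adjusted p = 0.358). Mpo was at 7839, 7445, 4447 and 8042 CPM against 5799, 7646, 12287 and 12458 CPM (-0.46 ± 0.26, edgeR adjusted p = 0.486). Both overlapped, with Lys05 libraries 3 and 4 the highest of the 8 in each. Of the 9 primary granule genes tested, 7 were negative, with a median of -0.46.

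Monocyte genes were mixed, with 8 of 14 negative. Ly6c2, the Ly6C antigen of inflammatory monocytes and their progenitors, was at 1005, 1114, 635 and 714 CPM with the combination and at 1234, 1461, 1850 and 2021 CPM with Lys05, with no overlap (log2 fold change -0.92 ± 0.28 SE, edgeR adjusted p = 0.246, DESeq2 adjusted p = 0.0298). Cx3cr1, the fractalkine receptor of monocytes and macrophages, was at 6.45, 9.18, 220 and 14.4 CPM against 9.68, 4.97, 6.19 and 4.79 CPM. Its log2 fold change of 3.28 rested on combination library 3 and was 0.56 without it. Among the 21 myeloid transcription factors tested, 12 were negative and 9 positive. Cebpb, the C/EBP factor of stress-driven granulopoiesis and of macrophages, was at 48.6, 40.9, 6.96 and 68.7 CPM against 75.8, 105, 133 and 139 CPM (-1.46 ± 0.53, edgeR adjusted p = 0.285). Zeb2, a zinc finger repressor needed for monocyte and dendritic cell fates, went the other way at 109, 344, 158 and 251 CPM against 142, 44.8, 22.4 and 26.3 CPM (1.87 ± 0.64, edgeR adjusted p = 0.273). Irf8, which directs GMP to monocytes and dendritic cells, overlapped at 251, 449, 75.8 and 426 CPM against 539, 409, 520 and 572 CPM. Cebpa and Cebpe, the factors of granulocyte commitment and terminal granule genes, also overlapped, with log2 fold changes of -0.54 ± 0.69 and -1.20 ± 0.61 (SE; edgeR adjusted p = 0.795 and 0.443).

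The genes of the kinases that AC220 blocks overlapped between the groups. Flt3 was at 6.64, 12.1, 2 and 20.4 CPM with the combination and at 21.6, 19.5, 13.8 and 17.3 CPM with Lys05 (log2 fold change -0.81 ± 0.74 SE, edgeR adjusted p = 0.699). Kit was at 85.4, 61.1, 12.3 and 35.5 CPM against 55.9, 33.2, 25.1 and 34.4 CPM (0.39 ± 0.53, edgeR adjusted p = 0.810). Both receptors were lowest in combination library 3. The gene counts do not separate the ITD allele from the normal one.

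STAT5 target genes had a median log2 fold change of 0.04 over 15 genes. At an unadjusted p under 0.05 there was 1, lower, where 4.98% of all genes were lower. Pim1, a STAT5-driven survival kinase, was at 21.8, 79.2, 36.6 and 49.9 CPM against 43.2, 22.8, 8.46 and 8.74 CPM (1.17 ± 0.59, edgeR adjusted p = 0.432). Socs2, a cytokine-signal suppressor that STAT5 induces, was at 15.4, 56.9, 12.2 and 57.5 CPM against 40.5, 29.3, 35.5 and 28.7 CPM (0.08 ± 0.54, edgeR adjusted p = 0.972). Neither gene separated the groups. Cish, also a STAT5-induced suppressor, stayed under 4 CPM in all 8 libraries. Among the ERK feedback genes, 10 of 11 were positive with a median of 1.3, and the median was -0.05 without combination library 3. Dusp6, the ERK phosphatase that ERK activity induces, was at 0.0244, 0.305, 56.4 and 3.95 CPM with the combination and at 1.23, 0.462, 2.59 and 1.06 CPM with Lys05, so that its log2 fold change of 3.50 became -0.05 without that library. Etv5, an ETS factor downstream of ERK, was at 16 CPM in library 3 and under 1 CPM in the other 7 libraries.

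Cell cycle genes divided. Ccnd3, the D cyclin of late progenitors, was at 47.0, 19.8, 14.1 and 6.18 CPM with the combination and at 47.2, 75.5, 72.9 and 104 CPM with Lys05 (log2 fold change -1.78 ± 0.52 SE, edgeR adjusted p = 0.246, DESeq2 adjusted p = 0.018). Combination library 1 nearly reached the lowest Lys05 library. Its partner kinase Cdk6 was higher, at 722, 974, 715 and 846 CPM against 678, 444, 251 and 305 CPM (0.96 ± 0.31, edgeR adjusted p = 0.257), and the CDK inhibitor Cdkn1a (p21) was at 46.0, 139, 79.6 and 106 CPM against 24.0, 23.3, 43.9 and 41.1 CPM (1.48 ± 0.45, edgeR adjusted p = 0.246). In these 3 genes the groups did not overlap. Mki67, the proliferation antigen, was at 544, 569, 380 and 833 CPM against 401, 349, 165 and 196 CPM, overlapping by 1 library (1.07 ± 0.35, edgeR adjusted p = 0.262). Nuf2, a kinetochore protein, was lower at 13, 3.12, 1.14 and 12.6 CPM against 53.6, 33.1, 28.4 and 32.3 CPM (-2.30 ± 0.65, edgeR adjusted p = 0.241, DESeq2 adjusted p = 0.00233). As lists, S phase (median 0.00, 44 genes) and G2/M genes (0.27, 33 genes) were near the median of all genes. At an unadjusted p under 0.05, 4 S phase genes were higher and 2 lower, and 3 G2/M genes higher and 1 lower. The shares of all genes were 7.27% and 4.98%.

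Because both groups received Lys05, the lists tied to its action were described for what AC220 added. Autophagy genes had a median log2 fold change of 0.34 over 39 genes and lysosomal genes one of 0.12 over 57. At an unadjusted p under 0.05, 2 autophagy genes were higher and 0 lower, and 5 lysosomal genes higher and 2 lower. Over all genes tested, 7.27% were higher and 4.98% lower at that p. Map1lc3b, whose protein LC3B coats autophagosomes, was at 380, 615, 475 and 582 CPM with the combination and at 194, 353, 654 and 540 CPM with Lys05 (0.24 ± 0.37 SE, edgeR adjusted p = 0.841). Sqstm1, which encodes the autophagy cargo receptor p62, was at 46.2, 21.9, 153 and 31.6 CPM against 33.5, 19.3, 29.9 and 35.4 CPM, high in combination library 3 alone (1.10 ± 0.60, and 0.06 without that library). Ppt1, a lysosomal depalmitoylating enzyme and a reported target of dimeric chloroquines, overlapped at 28.2, 82.9, 46.0 and 80.3 CPM against 109, 46.5, 65.5 and 77.7 CPM. Atg4c, a protease that processes LC3-family proteins, did not overlap, at 5.84, 6.57, 37.6 and 21 CPM against 4.12, 2.90, 1.61 and 2.30 CPM (2.7 ± 0.79, edgeR adjusted p = 0.246, DESeq2 adjusted p = 0.00267). Sterol and fatty acid synthesis genes had a median of 0.60 over 30 genes, and of 0.15 without combination library 3.

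Stress lists held members in both directions. Of the ATF4 and integrated stress response genes, 19 of 32 were positive with a median of 0.17, below that of all genes. Atf4 was at 205, 176, 150 and 120 CPM with the combination and at 95.4, 116, 39.7 and 51.2 CPM with Lys05, without overlap (log2 fold change 1.10 ± 0.35 SE, edgeR adjusted p = 0.249). Ddit3, the ATF4 target CHOP, was under 13 CPM in all 8 libraries and overlapped. Of the 21 unfolded protein response genes, 16 were positive, with a median of 0.38 that lay above that of all genes under all 20 settings. At an unadjusted p under 0.05, 5 of the 21 were higher and 3 lower, where 7.27% and 4.98% of all genes were. Among them Calr, the chaperone calreticulin, was at 1199, 1294, 841 and 1883 CPM against 742, 730, 598 and 582 CPM (0.98 ± 0.29, edgeR adjusted p = 0.246, DESeq2 adjusted p = 0.0465), whereas Xbp1, the transcription factor of that response, was at 35.2, 21.9, 56.2 and 37.4 CPM against 50.6, 86.0, 167 and 177 CPM (-1.67 ± 0.47, edgeR adjusted p = 0.241). Calr did not overlap between the groups and Xbp1 overlapped by 1 library. Of the antioxidant genes, Txnrd1 (thioredoxin reductase, an NRF2 target) was at 65.9, 125, 122 and 237 CPM against 53.3, 56.9, 38.5 and 37.0 CPM (1.57 ± 0.39, edgeR adjusted p = 0.203). Ftl1, the ferritin light chain, was lower at 1044, 959, 861 and 480 CPM against 1149, 1690, 2694 and 2370 CPM (-1.24 ± 0.36, edgeR adjusted p = 0.246).

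In the interferon list, 29 of 40 genes were positive, where 59.6% of all genes were. At an unadjusted p under 0.05, 4 were lower and 1 higher, where 4.98% and 7.27% of all genes were. DESeq2 called 2 lower and 0 higher, where it called 1.44% and 1.67% of all genes. The member with the smallest p was Zbp1, a cytosolic sensor of Z-form nucleic acids. It had 0, 0.0469, 0 and 0 CPM with the combination and 5.92, 7.57, 5.55 and 6.32 CPM with Lys05 (edgeR adjusted p = 0.142, DESeq2 adjusted p = 8.28e-06). Bcl2a1d, an anti-apoptotic BCL2 relative of myeloid cells with near-identical copies among which reads may be split, was at 0.0733, 0.352, 0.415 and 0.174 CPM against 19.3, 3.59, 1.56 and 2.57 CPM (-4.72 ± 1.29, edgeR adjusted p = 0.233, DESeq2 adjusted p = 0.00109). Bcl2l1, the survival gene BCL-XL, overlapped (0.00 ± 1.05, edgeR adjusted p = 1).

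Summed markers of other cells did not pass the test for any of the 14 lists after adjustment, and the erythroid and macrophage sums overlapped between the groups. The summed CPM of 15 erythroid genes was 1185, 590.8, 2442 and 402 in combination libraries 1 to 4 and 473, 120.3, 85.4 and 60.7 in Lys05 libraries 1 to 4 (exact two-sided permutation test, p = 0.0571; 0.267 adjusted over the 14 lists). That of 14 marrow macrophage genes was 220.0, 289, 1549.8 and 97.6 against 216.5, 49.7, 30.7 and 34.7 (p = 0.0571, exact permutation test; 0.267 adjusted). Combination library 3 held the highest sum of both lists, and Lys05 library 1 the highest of its group. The log2 difference of the mean sums was 2.78 for the erythroid and 2.40 for the macrophage list, and 2.31 and 1.64 without combination library 3. Of the 15 erythroid genes tested, 14 were positive, with a median log2 fold change of 2.11 (1.72 without that library). Of the 13 macrophage genes tested, 12 were positive, with a median of 2.68 (1.59 without it). The median of all genes was 0.26, and 0.04 without that library. At an unadjusted p under 0.05, 6 erythroid and 4 macrophage genes were higher and 1 erythroid gene lower. Of all genes, 7.27% were higher and 4.98% lower. Both medians lay above that of all genes under all 20 settings, by 1.58 to 2.65 and 1.126 to 3.415 log2. No erythroid gene was at 0 in all 8 libraries and 2 were under 1 CPM in all of them, while among the macrophage genes 1 was at 0 in all. The complement gene C1qb of macrophages was at 58.0, 87.9, 521 and 41.8 CPM against 51.8, 14.9, 6.17 and 5.25 CPM. The erythropoietin receptor gene Epor was at 14, 5.63, 2.7 and 0.842 CPM against 0, 0.0178, 0.0726 and 0.302 CPM, without overlap (edgeR adjusted p = 0.247, DESeq2 adjusted p = 0.00384). The globin gene Hba-a1 overlapped, at 584, 41.3, 1018 and 239 CPM against 206, 49.8, 30.1 and 17.95 CPM. Gata1, the erythroid transcription factor, was the 1 negative gene of the 15 and stayed under 1 CPM in all 8 libraries. It was lower without overlap, at 0, 0.0235, 0 and 0.058 CPM against 0.331, 0.48, 0.817 and 0.755 CPM (edgeR adjusted p = 0.362). The part of these cells in the differences between the groups was not tested.

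Whether AC220 changed GMP expression by a different amount with Lys05 than without it was tested on the difference of the 2 contrasts, (combination minus Lys05) minus (AC220 minus vehicle). No gene passed in edgeR (0% of 14572; 1287 at an unadjusted p under 0.05; smallest adjusted p 0.422), while DESeq2 called 240 and voom 1. Utrn had the smallest p. It was at 17.3, 26.0, 42.7 and 16.9 CPM with AC220 alone and at 55.5, 65.8, 38.8 and 31.1 CPM with vehicle, so that it had a log2 fold change of -0.89 for AC220 alone beside 2.79 on top of Lys05 (difference 3.68 ± 0.69 SE, edgeR adjusted p = 0.422). Siglece was at 25.1, 6.91, 54.7 and 37.1 CPM with AC220 alone and at 35.4, 30.2, 15.9 and 17.8 CPM with vehicle (difference -4.39 ± 1.05 SE, edgeR adjusted p = 0.422). H2-Ob had a log2 fold change of 0.68 for AC220 alone and a difference of -6.03 ± 1.21 (SE; edgeR adjusted p = 0.422). For AC220 alone against vehicle, edgeR called 0 of 14572 genes (smallest adjusted p 0.299). Spi1 and Slpi were lower with AC220 in both settings, with log2 fold changes of -1.16 and -1.05 for AC220 alone, neither called. Las1l and Nars were higher in both, at 1.36 and 1.32 for AC220 alone, also not called. These 4 genes did not pass the test of the difference (edgeR adjusted p from 0.569 to 0.908). The genes were chosen on the combination and Lys05 libraries, which also enter this difference.

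The same contrast in LSK cells gave other values for most of these genes. In LSK cells edgeR called 2811 of 17144 genes (16.4%), 1328 higher (7.75%) and 1483 lower (8.65%), in the fit of all 32 libraries. The difference, LSK minus GMP, was called by edgeR for 2117 of 17144 genes (12.3%), 868 higher (5.06%) and 1249 lower (7.29%), in a fit of all 32 libraries. Its spread was estimated over both cell types, of which the LSK libraries varied less, so that its p-values are on a tighter scale than those of the GMP fit. The CPM of LSK cells below are scaled over all 32 libraries, so they are not on the exact scale of the GMP values above. Of the 16 genes described above, 13 differed between the cell types, and the call was lost under 12 of 23 alternatives for Utrn, 10 for Siglece, 8 for Tyrobp and 1 each for H2-Ob and Spi1. Nars was at 194, 242, 302 and 232 CPM in LSK cells with the combination and at 280, 359, 213 and 238 CPM in LSK cells with Lys05 (difference of log2 fold changes -1.92 ± 0.37 SE, edgeR adjusted p = 5.04e-04). Slpi was at 26.8, 39.0, 29.8 and 42.8 CPM against 25.1, 52.2, 36 and 25.4 CPM in LSK cells (1.95 ± 0.41, edgeR adjusted p = 0.00136). In both genes the LSK groups overlapped where the GMP groups had not. Emg1 went the other way in LSK cells, at 199, 210, 216 and 182 CPM against 563, 535, 505 and 444 CPM (-2.30 ± 0.21, edgeR adjusted p = 7.53e-09). Spi1 differed by 1.84 ± 0.47 (edgeR adjusted p = 0.0085), but by 0.38 with an adjusted p of 0.639 under the length and GC offset. Las1l did not pass: it was at 61.8, 95.4, 104 and 95.4 CPM against 35.9, 26.4, 25.5 and 26.8 CPM in LSK cells, a log2 fold change of 1.64 beside 1.58 in GMP (difference 0.06 ± 0.32 SE, edgeR adjusted p = 0.935). Since the 16 genes were picked on the GMP libraries, their test of the difference is not independent of the choice.

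**Figure D5:**
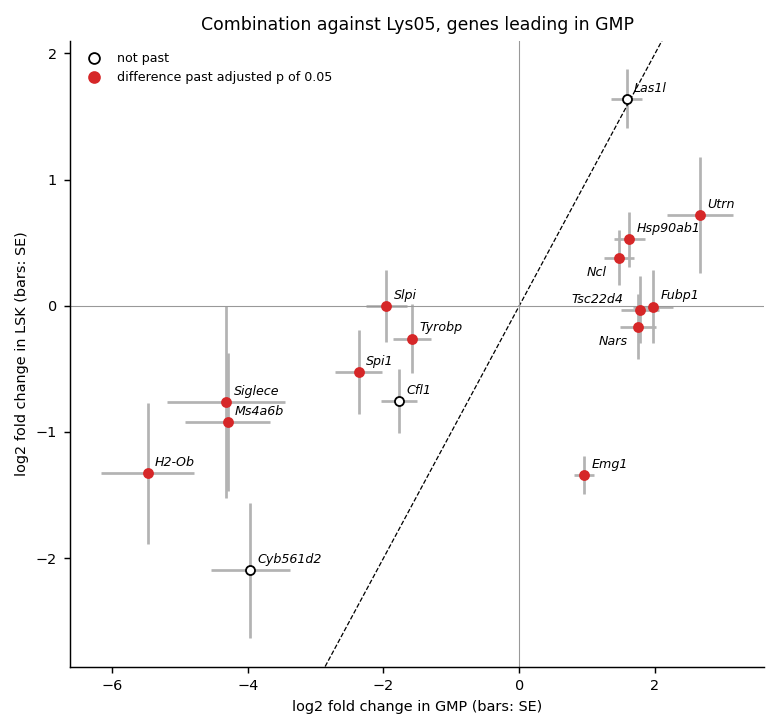
Log2 fold change of the combination against Lys05 in GMP (x axis) and LSK (y axis) for the 16 genes described, from the fit of all 32 libraries; bars are SE, filled points are genes whose difference passed an edgeR adjusted p of 0.05, and the dashed line marks equal values. Las1l lies on the line, Emg1 is higher in GMP and lower in LSK, and the lower GMP genes lie nearer to 0 in LSK.

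Most ribosomal protein and oxidative phosphorylation genes were lower in the difference. Of the 78 ribosomal protein genes 59 were called lower and none higher, with a median log2 fold change of 0.32 in GMP and -1.04 in LSK. Of the 72 oxidative phosphorylation genes 54 were lower and 2 higher. Cox7c was at 182, 136, 156 and 115 CPM in LSK cells with the combination and at 1286, 907, 942 and 1326 CPM with Lys05, a difference from GMP of -3.83 ± 0.35 (SE; edgeR adjusted p = 9.44e-09) that became -1.27 under the length and GC offset. Transcripts under 1000 bp took 10.6%, 8.88%, 7.89% and 8.05% of the gene counts in the LSK combination libraries and 20.2%, 17.3%, 17.9% and 19.1% in the LSK Lys05 libraries. In GMP the same shares overlapped between the groups. With the offset, 32 ribosomal protein and 39 oxidative phosphorylation genes were called lower, beside 1778 calls over all genes (10.4%), 412 higher (2.4%) and 1366 lower (7.97%).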

How the data were processed

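The deposited table held raw counts per gene for 32 libraries made with SMARTer Ultra Low Input v4 and Nextera XT kits, per the labels' protocols; the kits do not mark strand. Per the submitters' processing notes, the tools named are STAR 2.7.3a, HTSeq 0.11.2, DESeq2 1.26.0, Trim Galore 0.6.5 and bcl2fastq 2.20, and the build GRCm38. The 5 summary lines (19.1% to 30.4% of all counts in the 8 libraries) were left out. Gene names came from GENCODE M21 (55230 of 56246 genes). Genes were kept by filterByExpr, scaled by TMM and tested by edgeR 4.0.16 (robust quasi-likelihood) in R 4.3.3 with Benjamini-Hochberg adjustment at 0.05. Alternatives used DESeq2 1.42.0 and limma 3.58.1. The scripts were tested on simulated data. Libraries of a group differed far beyond counting noise (chi-square per gene 82.8 to 1402), so none was another library of its group sequenced again. This measure cannot exclude a second preparation from the same RNA. Named genes were, with no overlap and a mean log2 CPM of at least 2, the 8 smallest p per direction, up to 4 of each list by p, and 33 followed genes; H2-Aa, H2-Eb1, Ciita, C1qb and other list members were added after their values were seen. Members and the 40 lists were chosen with earlier results of these data known.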

Additional observations from a re-analysis of the deposited data

Results flagged for a closer look

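In all, 6 values stood far from the other 3 libraries of their group, out of 64 groups of 4 examined, of which chance flags about 1 in 20. In Lys05 library 1 the mitochondrial share was 9.19% where the others had 0.377% to 1.29%, the erythroid sum was 473.2 CPM where the others had 60.7 to 120.3, the macrophage sum was 216.5 CPM where the others had 30.7 to 49.7, and Tsc22d4 was at 164 CPM where the others had 137.5 to 139.6. In combination library 3 the macrophage sum was 1550.0 CPM where the others had 97.6 to 289. In combination library 4 Nars was at 1916 CPM where the others had 833 to 952.

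The contrast differed between LSK and GMP cells, by the edgeR test of the difference, for 13 of the 16 genes described. The difference of log2 fold changes, LSK minus GMP, was -1.10 for Hsp90ab1, -1.81 for Tsc22d4, -1.94 for Utrn, -1.92 for Nars, -2.30 for Emg1, -1.97 for Fubp1 and -1.08 for Ncl. It was 1.84 for Spi1, 4.15 for H2-Ob, 1.95 for Slpi, 3.38 for Ms4a6b, 3.55 for Siglece and 1.32 for Tyrobp.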

How the results depend on the processing

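The count of genes called for the combination against Lys05, 0 in the main fit, was 454 with DESeq2, 494 with voom and 6 without a filter on low counts. Leaving out 1 of the 8 libraries gave 0 to 22 calls. Among alternatives added after seeing the data, it was 1210 with all 32 libraries in the fit, 198 without the 5 GMP libraries whose median correlation with the other GMP libraries was under 0.8, and 92 without combination library 3 and Lys05 library 1. It stayed 0 with RLE factors, without robust fitting, with the length and GC offset, with the 8 libraries alone and with these less combination library 3. The difference in the AC220 effect had 240 calls with DESeq2, 1 with voom, 5 without the weakly correlated libraries and 0 to 1 when 1 library was left out. The LSK minus GMP difference, 2117 calls (868 higher, 1249 lower), had 3350 with DESeq2 (1180 higher, 2170 lower), 3836 with voom (2277 higher, 1559 lower), 5442 without the weakly correlated libraries (3271 higher, 2171 lower), 1778 with the offset (412 higher, 1366 lower), 2223 with RLE factors (681 higher, 1542 lower) and 1572 to 2997 when 1 library was left out, the most without GMP combination library 3 (1605 higher, 1392 lower). The 16 genes described kept their sign under all 19 alternatives of the main comparison. They had been picked in the same libraries for a small p and for groups that do not overlap. A change of sign was therefore unlikely from the outset, and the kept sign is no independent support. No paired analysis was possible because the labels give no replicate number that groups share; numbers here follow accession order. The causes were not tested. The GMP spread, with a common biological coefficient of variation of 1.06, limits what 4 libraries a group can show; depth was not varied.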

Other observations

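Of the 19 cytokine and growth factor receptor genes tested, which include Flt3, Kit and Epor, 11 were negative, with a median log2 fold change of -0.37, and 3 were lower and 1 higher at an unadjusted p under 0.05, where 4.98% and 7.27% of all genes were. Ifngr1, a chain of the interferon gamma receptor, was at 60.4, 91.6, 22.2 and 55.3 CPM in combination libraries 1 to 4 and at 95, 115, 190 and 232 CPM with Lys05 (log2 fold change -1.46 ± 0.45 SE, edgeR adjusted p = 0.246). Csf2ra, the ligand-binding chain of the GM-CSF receptor, was at 43.1, 4.81, 3.01 and 71.1 CPM against 46.1, 72.7, 225 and 251 CPM (log2 fold change -2.28 ± 0.85 SE, edgeR adjusted p = 0.298). The groups did not overlap for Ifngr1 and overlapped for Csf2ra.

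In the NF-kB list, 4 of 21 genes were lower and 1 higher at an unadjusted p under 0.05, where 4.98% and 7.27% of all genes were. The list median of -0.08 lay below that of all genes, as it did under all 20 settings. Nfkb1, which encodes the p105 precursor of the p50 subunit, was at 37.4, 17.3, 1.35 and 27.7 CPM against 58.3, 52.8, 67.4 and 69.3 CPM (log2 fold change -1.56 ± 0.61 SE, edgeR adjusted p = 0.315). Rel, the c-Rel subunit, went the other way at 17.3, 32.1, 32.9 and 29.2 CPM against 20.2, 7.52, 4.7 and 4.68 CPM (log2 fold change 1.59 ± 0.64 SE, edgeR adjusted p = 0.329). The immediate early gene Ier2 was at 90.4, 78.1, 12.8 and 65.2 CPM against 132, 133, 204 and 220 CPM (log2 fold change -1.48 ± 0.46 SE, edgeR adjusted p = 0.248).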
